A study of Mus musculus with 2 samples.

Results

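Isg15, Ifit1, Ifit3, Oasl2, Irf7, Bst2, Ifitm2 and Ifitm3 are 8 interferon-stimulated genes that were followed in single epithelial cells of mouse intestinal organoids to which no interferon had been added, as far as the labels say. The genes were chosen by name and matched by Ensembl identifier, and each of the 8 had a row among the 15745 genes of the count table. Organoids are epithelial cultures grown from intestinal crypts, and these came from wild-type C57BL/6 mice aged 10 weeks. One droplet library was made at day 3 of culture and 1 at day 5, in a basal medium with EGF, Noggin and R-spondin throughout. Both cultures had Wnt3a-conditioned medium (20%) and the ROCK inhibitor Y-27632 (10 µM) up to day 3 and the GSK3B inhibitor CHIR99021 (3 µM) up to day 1, and none of these was added from day 3 to day 5. Day and medium therefore cannot be told apart, and with 1 library per day there was no replicate and no test between days.

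Interferons signal through JAK kinases to transcription factors that bind a DNA element called the ISRE near the start of their target genes. Many targets are nearly silent until a cell senses a virus or receives interferon, and epithelial cells of the gut are known to answer mainly to type III interferon. Some antiviral genes, with those of the IFITM proteins among them, are also known to be expressed without infection in stem cells.

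Isg15 (chr4:156199424-156200818 on GRCm38) encodes a ubiquitin-like protein that is attached to other proteins, and Ifit1 (chr19:34640871-34650009) and Ifit3 (chr19:34583531-34588731) encode proteins that restrict viral RNA. Oasl2 (chr5:114896936-114912234) is a relative of the oligoadenylate synthetases, and Irf7 (chr7:141262706-141266481) encodes a transcription factor that amplifies interferon production. Bst2 (chr8:71534255-71537456) encodes tetherin, which holds budding virus at the cell surface. Ifitm2 (chr7:140954837-140955987) and Ifitm3 (chr7:141009586-141010770) encode small membrane proteins that hinder viral entry through endosomes. All are protein-coding genes. Ifit3 has a near-identical neighbouring copy, and Ifit1 has close relatives in the same cluster, so how reads were split among these copies is uncertain.

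The ISRE core was sought as GAAA, any 2 bases and GAAA on both strands in the RefSeq promoter windows (GRCm38.p6), which run from 250 bases before to 50 after each start. The letters occurred in 6 of the 8 genes and in 3.44% of all 32851 windows of the same length. The other 36 genes with a window on a wider list of interferon-stimulated genes held the letters in 14 cases (38.9%). Irf7 and Oasl2 had no match in this window. The matched stretches are shown because they are what Isg15, Ifit1, Ifit3, Bst2 and both Ifitm genes share in sequence beyond the rule that chose them, although their levels below differ. Each runs 5′ to 3′ on the strand of its gene, with the matched letters in capitals. The Isg15 stretch (chr4:156200819-156201068, minus strand) ends just before the annotated gene and holds 3 overlapping matches, the first at base -78 from the RefSeq start.
Isg15: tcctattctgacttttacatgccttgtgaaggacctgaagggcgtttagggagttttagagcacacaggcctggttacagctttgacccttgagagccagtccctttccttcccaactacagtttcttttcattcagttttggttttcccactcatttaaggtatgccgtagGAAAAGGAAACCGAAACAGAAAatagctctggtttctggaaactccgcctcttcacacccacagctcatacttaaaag
Ifit1 matched at bases -104 (chr19:34640775-34640804) and -85, and Ifit3 at -156 (chr19:34583363-34583392) and -122, all on the opposite strand, with the same 10 letters in the first match of each.
Ifit1: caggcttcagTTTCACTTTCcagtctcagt
Ifit3: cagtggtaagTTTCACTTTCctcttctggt
Bst2 had 2 overlapping matches from base -130 (chr8:71537583-71537612), and Ifitm2 had 1 at base -46 (chr7:140955988-140956017). Of the Bst2 matches only the first is in capitals, and the second starts at base -124.
Bst2: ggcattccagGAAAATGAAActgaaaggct
Ifitm2: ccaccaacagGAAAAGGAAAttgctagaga
Ifitm3 had matches at bases 3 (chr7:141010723-141010752) and 20 after its RefSeq start, inside the annotated first exon.
Ifitm3: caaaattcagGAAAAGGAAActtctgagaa

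The day 3 library held 798 cells with 28764033 unique molecular identifiers (UMIs, each standing for 1 captured transcript) and a median of 32063.5 per cell. The day 5 library held 1065 cells with 17349076 UMIs and a median of 13549. No column code was shared by the libraries. UMIs were summed over cells and scaled to 1000000 (CPM), with exact 95% Poisson intervals that cover counting error only. A gene is said to be higher, lower, or to have risen or fallen, where the sums held at least 10 UMIs together, differed by 1.5-fold or more, and had separate intervals. Each library was clustered alone without the interferon genes. Absorptive cells were the Enterocyte-like clusters, with 58 cells at day 3 and 416 at day 5, and expressed their markers: Fabp1, a fatty acid carrier, was at 3788 and 10589 CPM in them. At day 3 few cells carried that level, since 1 cell held 29.5% and 10 cells 67.8% of the Fabp1 UMIs of the class. Crypt cells were the Stem-like and Proliferating-like clusters, with 256 cells on each day, and had 20.2 and 530 CPM of Fabp1. At day 5 no cluster met the rule for Stem-like cells, so its crypt cells were Proliferating-like only (clusters d5c1 and d5c3, against Proliferating-like d3c3 and Stem-like d3c5 and d3c6 at day 3). Median mitochondrial shares were 4.16% and 5.23% in crypt and absorptive cells at day 3 and 5.24% and 8.90% at day 5, and median UMIs were 34312.5, 23777, 20883.5 and 10726.5.

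Over all cells, 5 of the 8 genes counted as higher at day 5 and 0 as lower, where 12.3% of 12782 genes counted as higher and 31.5% as lower. Irf7 rose from 39 UMIs and 1.36 CPM (0.964 to 1.85) to 112 UMIs and 6.46 CPM (5.32 to 7.77), a log2 ratio of 2.24. Isg15 had 6 and 19 UMIs, Ifit1 8 and 26, Ifit3 2 and 13, and Oasl2 3 and 16. These 4 genes were below 2 CPM in both libraries, and their log2 ratios were 2.31, 2.37, 3.16 (interval 1.29 to 6.62) and 2.97 (1.34 to 5.57). The 3 abundant genes changed less than the rule requires. Bst2 had 674 UMIs (23.4 CPM) and 339 (19.5 CPM), Ifitm2 had 6384 (222 CPM) and 4029 (232 CPM), and Ifitm3 had 2245 (78.0 CPM) and 1166 (67.2 CPM). Their log2 ratios were -0.26, 0.065 and -0.22. Another scaling, TMM, moved the median of all genes by 0.31 in log2, which turned the ratios of Bst2 and Ifitm3 to 0.052 and 0.098, and it raised the share of higher genes among all that counted from 28.1% to 52.4%. The same shift was 0.20 and 0.11 for absorptive against crypt cells at day 5 and day 3, and 0.17 and 0.30 between days within crypt and absorptive cells. When day 5 was limited to cells of at least 17601 UMIs, the lowest total of any day 3 cell, 0 of the 8 counted as higher and the Irf7 ratio was 0.95. With Enterocyte-like cells left out, Irf7 alone counted as higher, at 1.31.

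Shares of cells were compared after each cell had been thinned at random to 6700 UMIs. At day 3 Irf7 was then detected in 0.877% of cells, with an exact Clopper-Pearson 95% interval of 0.353 to 1.80, and at day 5 in 4.32% (3.18 to 5.72). Bst2 was in 15.0% and 9.48%, Ifitm2 in 71.7% and 55.4%, and Ifitm3 in 23.6% and 16.6%, each with intervals apart. The share of all genes with separate intervals after thinning was not computed, so these differences are not shown to be particular to these genes. Before thinning the shares were 4.39% and 9.01% for Irf7, 53.9% and 24.7% for Bst2, 97.2% and 67.8% for Ifitm2, and 54.0% and 27.5% for Ifitm3. Isg15, Ifit1, Ifit3 and Oasl2 were in under 1% of cells on both days, with overlapping intervals. Thus Ifitm2 and Ifitm3 were found in a smaller share of day 5 cells although their summed levels were close, and the classes below show the spread among cells.

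At day 5, 3 of the 8 genes were higher and 3 lower in absorptive than in crypt cells (against 19.7% and 30.3% of 10985 genes, with 39.4% of those that counted being higher, or 49.8% under TMM). Ifitm3 fell from 673 UMIs and 114 CPM (106 to 123) in crypt cells to 14 UMIs and 2.94 CPM (1.61 to 4.94) in absorptive cells, which is 37.6-fold. Those 14 UMIs lay in 14 different cells. Ifitm2 fell from 2130 UMIs and 362 CPM (347 to 378) to 210 UMIs and 44.1 CPM (38.4 to 50.5), or 8.19-fold. Bst2 fell from 158 UMIs and 26.9 CPM (22.8 to 31.4) to 36 UMIs and 7.56 CPM (5.30 to 10.5), or 3.51-fold. In the other direction, Irf7 rose from 16 UMIs and 2.72 CPM (1.55 to 4.42) to 73 UMIs and 15.3 CPM (12.0 to 19.3), or 5.51-fold. Ifit1 had 3 UMIs in crypt and 23 in absorptive cells, a log2 ratio of 3.05 (1.52 to 5.62), and Ifit3 had 0 and 11 UMIs, at least 4.53-fold higher against a floor of 3 UMIs per group. Isg15 (5 and 13 UMIs) and Oasl2 (4 and 12) had overlapping intervals. The Irf7 and Bst2 UMIs were spread over 61 and 34 of the absorptive cells, whereas 17 of the 23 Ifit1 UMIs lay in 1 cell. Ifit1 and Ifit3 did not count as higher once the 3 cells described below had been left out. Irf7 did not count as higher with clusters drawn at resolution 2, where its ratio was 1.59, and among cells with at most 8% mitochondrial UMIs it did, at 2.03. The Enterocyte-like clusters at resolution 2 held only 85 and 45 cells. A cluster of 176 cells with Cyp3a11 and Apoa4 among its leading genes stayed unnamed there. Another of 44 cells, with Irf7 among its leading genes, was unnamed too. Whether Irf7 counts with those cells in the class was not tested.

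After thinning, 31.2% of day 5 crypt cells (25.6 to 37.3) and 2.40% of absorptive cells (1.16 to 4.38) had an Ifitm3 UMI, against 56.6% and 3.37% before it. Lgr5, the crypt stem cell receptor that absorptive cells should lack, was in 14.8% and 0 of these thinned cells (up to 0.883%). Irf7 was in 0.781% of crypt cells (0.0948 to 2.79) and 8.89% of absorptive cells (6.34 to 12.1), against 5.86% and 14.7% before thinning. With cells thinned to 9800 UMIs instead, which kept 246 crypt and 266 absorptive cells, Ifitm3 was in 41.5% (35.2 to 47.9) and 2.26% (0.832 to 4.84) of them. Irf7 was then in 3.25% (1.41 to 6.31) and 9.02% (5.87 to 13.1), so its intervals overlapped at that depth. How much of the 2.40% came from free RNA was not tested.

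At day 3 the comparison rests on 58 absorptive cells. Ifitm3 was at 148 CPM (140 to 156, 1448 UMIs) in crypt and 21.8 CPM (15.1 to 30.5, 34 UMIs) in absorptive cells, 6.69-fold lower. Ifitm2 was at 295 CPM (284 to 306) and 168 CPM (148 to 190), 1.75-fold lower. These 2 genes were the ones that counted as lower and 0 counted as higher, with a background of 19.7% and 11.9% of 10935 genes. Bst2 was at 23.2 CPM and 19.9 CPM with overlapping intervals, and Irf7 had 10 and 5 UMIs (1.02 and 3.21 CPM), also overlapping. Isg15 had 4 and 1 UMIs, Ifit1 7 and 0, Ifit3 0 and 1, and Oasl2 1 and 2, too few to compare. Ifitm3 and Ifitm2 thus counted as lower in absorptive cells on both days, though the crypt class held Stem-like cells at day 3 only. In those 132 Stem-like cells Ifitm3 was at 235 CPM and Ifitm2 at 367 CPM. No call was made for absorptive cells against the day 3 Proliferating-like cells alone. The Ifitm3 level of those Proliferating-like cells, given by cluster below, had an interval above that of absorptive cells. How far the smaller Ifitm2 difference at day 3 rests on the Stem-like cells was not tested. At day 3 Ifitm2 did not count in 2 of 12 alternatives, those with clusters at resolution 0.5 (-0.35) and with the extremes of 5 parts ordered by the Enterocyte list (-0.19), against the log2 ratio of -0.81 above.

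**Figure D1:**
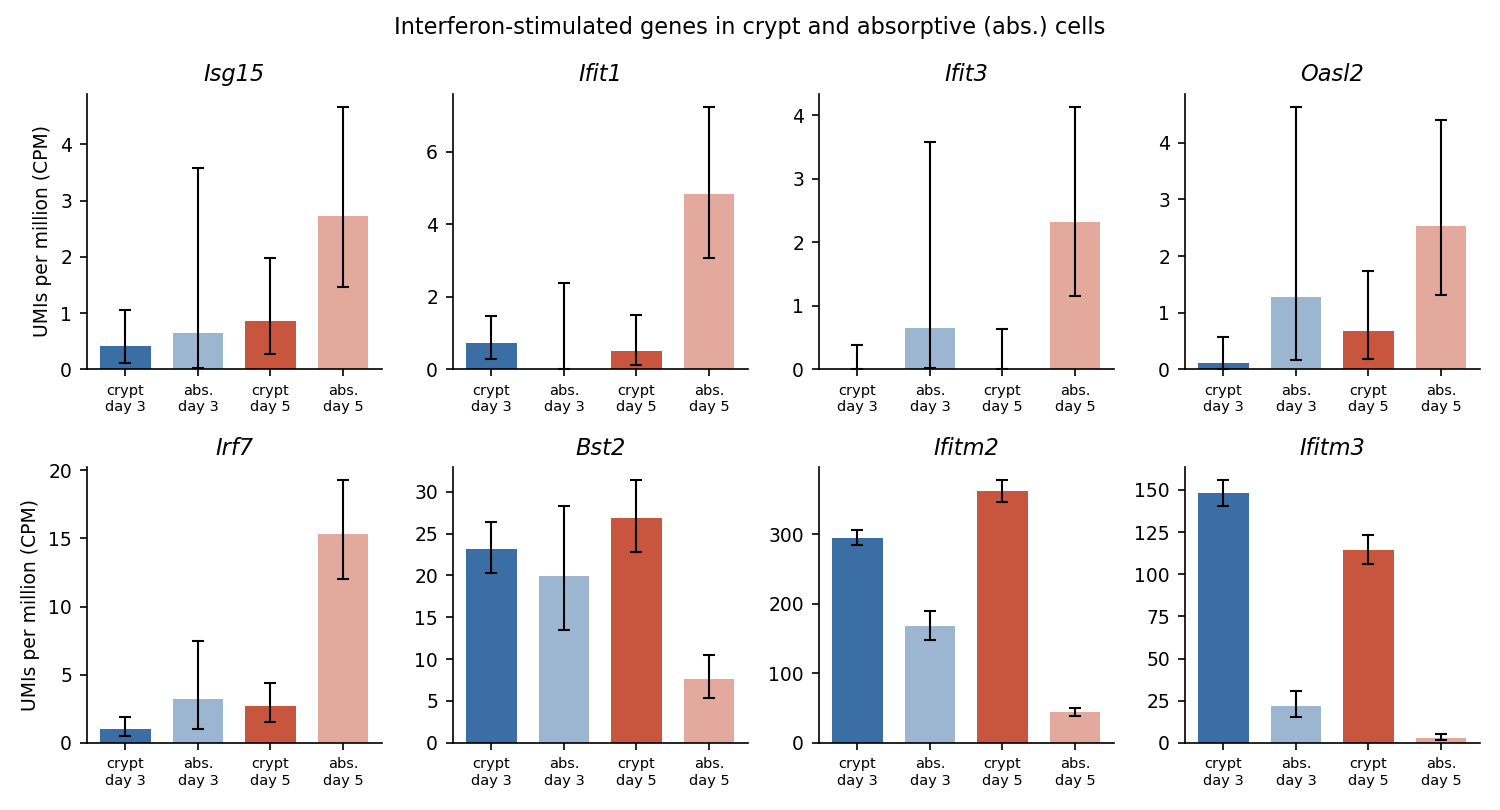
CPM (linear axes from 0) of each gene in crypt and absorptive cells of the day 3 (blue) and day 5 (red) libraries, with absorptive bars lighter and exact 95% Poisson intervals as error bars. Ifitm3 is at 148 and 114 CPM in crypt cells and at 21.8 and 2.94 CPM in absorptive cells, whereas Irf7 reaches 15.3 CPM in absorptive cells at day 5.

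Between days, 0 of the 8 genes counted as higher or lower in crypt cells, against 8.05% and 16.6% of 11323 genes (32.7% of those that counted were higher, 53.4% under TMM). The crypt cells were not alike on the 2 days. At day 3 they held 132 Stem-like cells, with Ifitm3 at 235 CPM and Ifitm2 at 367 CPM, while at day 5 they were Proliferating-like only. Proliferating-like cluster d3c3 alone had less Ifitm3 than day 5 crypt cells (levels by cluster below), so the sign of the Ifitm3 ratio depends on the Stem-like cells. Crypt levels of Ifitm3 were 148 and 114 CPM, a log2 ratio of -0.37 (-0.51 to -0.24), and those of Irf7 were 1.02 and 2.72 CPM, 1.39 (0.18 to 2.71). Irf7 counted as higher there, at 1.88, once 1 day 3 and 1 day 5 cell described next had been left out. In absorptive cells, Irf7 (2.13) and Ifit1 (0 and 23 UMIs, at least 2.51-fold) counted as higher at day 5 and Bst2 (-1.40), Ifitm2 (-1.93) and Ifitm3 (-2.86) as lower, against 11.1% and 20.1% of 9974 genes (35.6% higher, 56.8% under TMM). Isg15 (1 and 13 UMIs), Ifit3 (1 and 11) and Oasl2 (2 and 12) did not pass. The day 3 Enterocyte-like cells were less advanced by their markers, with Apoa4, a lipoprotein gene, at 64.8 CPM (90.1% of it from 10 cells) against 1658 CPM at day 5.

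Isg15, Ifit1, Ifit3 and Oasl2 came from very few cells. A UMI of any of the 4 was found in 9 day 3 cells and 29 day 5 cells. Of these, 1 cell at day 3 and 2 at day 5 had at least 3 of the 4 genes, whereas 8 and 26 cells had 1 gene only. The day 3 cell, from Proliferating-like cluster d3c3, held 11 of the 19 UMIs of these genes in its library (57.9%), with 7 of Ifit1, 3 of Isg15 and 1 of Oasl2. A day 5 cell from Enterocyte-like cluster d5c8 held 33 of the 74 UMIs (44.6%), with 17 of Ifit1, 8 of Isg15, 5 of Oasl2 and 3 of Ifit3. A day 5 cell from Proliferating-like cluster d5c1 held 10 (13.5%), with 5 of Isg15, 3 of Ifit1 and 2 of Oasl2. These cells were picked for their counts after the values were seen, so their values are a description. Without them, Isg15 had 3 and 6 UMIs, Ifit1 1 and 6, and Oasl2 2 and 9, and the genes that still counted as higher at day 5 were Ifit3 (2 and 10 UMIs) and Irf7 (log2 ratio 2.29). In absorptive against crypt cells at day 5, Irf7 then stood alone among the higher genes (2.35), while Bst2, Ifitm2 and Ifitm3 still counted as lower.

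**Figure D2:**
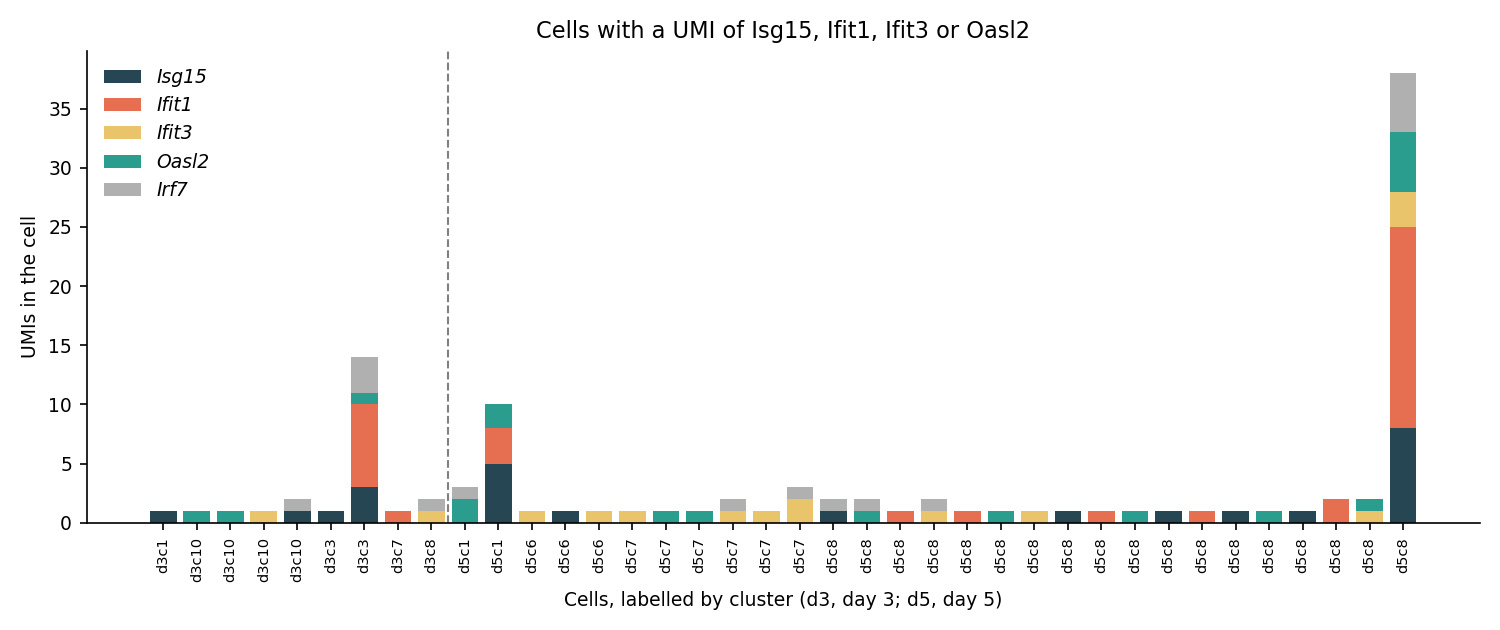
UMIs of Isg15, Ifit1, Ifit3, Oasl2 and Irf7 in each cell with a UMI of any of the first 4, with cells along the x axis labelled by cluster and the dashed line between day 3 and day 5. The d5c8 cell at the right holds 17 Ifit1 and 8 Isg15 UMIs, and most other cells hold 1 UMI of the first 4 genes.

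The same cells were then looked at for the 47 other genes of the wider list. In the d5c8 cell these genes summed to 95 UMIs from 24 genes, or 5666 CPM, against a median of 845 and a highest value of 2321 CPM among its 223 cluster mates. It held 21 of the 83 day 5 UMIs of Ifit1bl1, a relative of Ifit1, 7 of Parp12, 4 of Cmpk2 and 5 of Irf7. The day 3 d3c3 cell had 63 UMIs from 25 of the genes, 2017 CPM against a median of 447 and a highest value of 1132 CPM among 123 mates. It held 3 of the 5 day 3 UMIs of Ifi44 and 6 of the 13 of Rtp4, both known interferon-induced genes, and 19 UMIs of Ifitm3. The d5c1 cell differed from both, with 18 UMIs (421 CPM) against a median of 462, and 97 of its 166 mates were at or above it. None of the 3 was called a doublet or held a UMI of the listed immune and stromal markers. They had 31237 (d3c3), 42709 (d5c1) and 16766 (d5c8) UMIs in all, against mates' medians of 37307, 21226 and 9490.

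Ifitm3 was highest in Stem-like cells at day 3. The 132 Stem-like cells held 1109 of its UMIs, or 235 CPM (222 to 250). The other 666 cells held 1136, or 47.2 CPM (44.5 to 50.1), and the log2 ratio was 2.32. For Ifitm2 the levels were 367 CPM (350 to 385) and 194 CPM (188 to 199), with a ratio of 0.92. These 2 counted as higher and 0 as lower, against 2.85% and 10.8% of 12143 genes. Bst2 hardly differed, at 23.3 CPM (interval 19.2 to 28.1) in Stem-like and 23.5 CPM (21.6 to 25.5) in other cells, and had a log2 interval of -0.32 to 0.29 around the ratio of -0.0016, which is 0.039 under TMM. Irf7 had 3 UMIs in Stem-like cells and 36 in the others, with overlapping intervals (0.131 to 1.86 CPM and 1.05 to 2.07 CPM). Isg15, Ifit1, Ifit3 and Oasl2 had 0 UMIs in Stem-like cells, where 3 UMIs would be 0.637 CPM, above the level of each of the 4 in the whole library, so their absence there could not be shown at this depth. Ifitm3 was among the leading genes of both Stem-like clusters although it was left out of the genes used to draw them. After thinning, Ifitm3 was found in 50.8% of Stem-like cells (41.9 to 59.6) and 18.2% of the others (15.3 to 21.3), at median depths of 31803 and 32088 UMIs, and in 73.5% and 50.2% before it.

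By cluster, the order of Ifitm3 at day 3 ran from the Stem-like clusters d3c6 at 297 CPM (272 to 325) and d3c5 at 201 CPM (185 to 217) through the 8 Enteroendocrine-like cells at 125 CPM (93.6 to 164) and the mixed secretory cells at 94.9 CPM (80.4 to 111), which overlapped, to the Proliferating-like cells at 66.9 CPM (59.9 to 74.4). The lowest were the Enterocyte-like cluster at 21.8 CPM and unnamed cluster d3c7 at 20.6 CPM, which did not differ beyond counting error. At day 5, Proliferating-like cluster d5c3 (140 CPM, 124 to 158), unnamed cluster d5c2 (139 CPM, 125 to 154) and the Paneth-like cells (130 CPM, 105 to 159) overlapped. Proliferating-like cluster d5c1 followed at 103 CPM, and the Enterocyte-like clusters d5c7 and d5c8 came last at 3.63 and 2.19 CPM. Ifitm2 was highest in d5c3 (422 CPM, 393 to 453) and d5c2 (395 CPM) and lowest in d5c8 (28.9 CPM, 22.4 to 36.8). Its levels at day 3 lay between 109 CPM in cluster d3c1 and 385 CPM in d3c6. Bst2 differed little among the day 3 clusters, all between 19.8 and 27.4 CPM, and at day 5 it ranged from 7.01 CPM in d5c8 to 32.5 CPM in d5c3. Irf7 at day 5 was highest in d5c8 (20.2 CPM, 14.8 to 26.9) and d5c7 (10.9 CPM, 7.18 to 15.9), which overlap, and 2.02 CPM in d5c2.

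**Figure D3:**
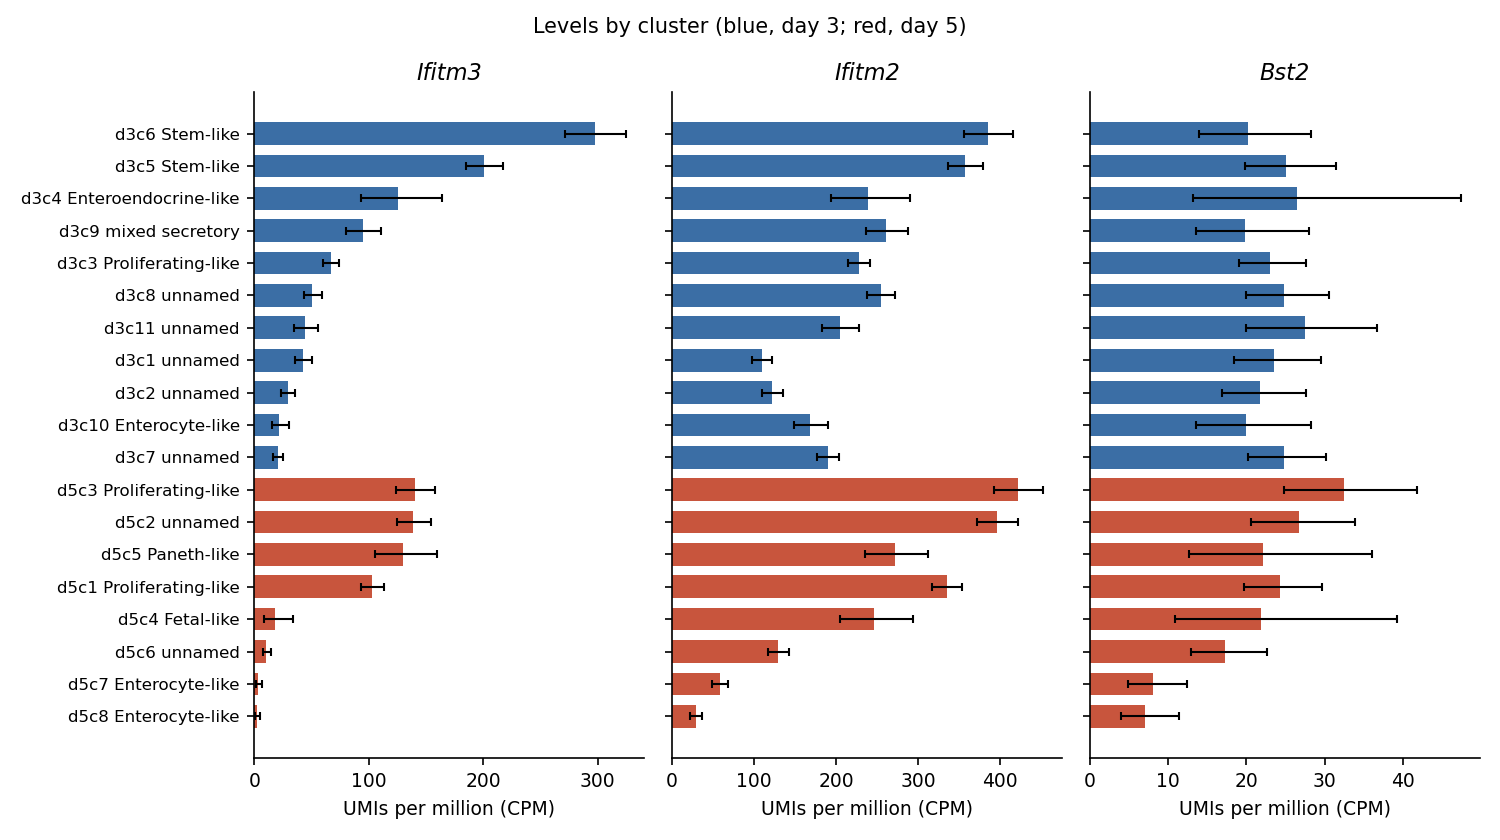
CPM of Ifitm3, Ifitm2 and Bst2 (x axes from 0) in each cluster of the day 3 (blue) and day 5 (red) libraries, ordered by Ifitm3 within a day, with exact 95% Poisson intervals. Ifitm3 spans 297 to 20.6 CPM at day 3 and 140 to 2.19 CPM at day 5, whereas Bst2 stays between 19.8 and 27.4 CPM at day 3.

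Cluster d5c2 was the only day 5 cluster with Stem markers among its leading genes, Gkn3 and Aqp4, 1 fewer marker than the name requires. In its 134 cells Ifitm3 was at 139 CPM against 55.3 CPM in the other day 5 cells, a log2 ratio of 1.33, and Ifitm2 at 395 and 205 CPM, 0.95. Irf7 was lower in it, with 5 UMIs against 107 (2.02 and 7.19 CPM), a ratio of -1.70. These were the 2 higher genes and the 1 lower gene, where 5.83% and 10.8% of 11536 genes counted. Isg15, Ifit1, Ifit3 and Oasl2 had 0 UMIs in the cluster. Proliferating-like cluster d5c3 and the Paneth-like cells of day 5 held 0 UMIs of these 4 genes too. In d5c2 3 UMIs would be 1.21 CPM, above the level of 3 of the 4 genes in the whole library.

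The levels were then followed over 5 equal parts of each library, ordered by the share of a cell's UMIs in the Enterocyte list, with 159 or 160 cells a part at day 3 and 213 at day 5. At day 5 Ifitm3 was at 171 CPM (160 to 183), 64.2 CPM, 13.05 CPM (9.48 to 17.5), 4.18 CPM (2.09 to 7.48) and 2.26 CPM (0.734 to 5.28), and only the last 2 parts overlapped. Ifitm2 went from 415 to 310, 137, 52.1 and 38.9 CPM, again with an overlap of the last 2 parts. Bst2 went from 31.9 (27.1 to 37.4) to 20.8, 15.7, 10.6 and 6.33 CPM, where the first part stood above the others and neighbours among the rest overlapped. Irf7 went the other way, with 2.06, 3.27, 4.15, 13.7 (9.58 to 18.9) and 17.2 CPM (12.2 to 23.6), where the first 3 parts overlap and the last 2 lie above them. Median mitochondrial shares rose with it from 4.74% to 9.78% and median UMIs fell from 20868 to 10053, and their part in the order was not tested. At day 3 Ifitm3 was at 91.2, 111, 90.1, 61.9 and 21.4 CPM, while Bst2 stayed between 22.9 and 24.2 CPM and Irf7 between 0.639 and 2.01 CPM. All 5 intervals of Bst2 overlapped at day 3, as did those of Irf7. The highest part held 3274 CPM of the Enterocyte list at day 3 and 57599 CPM at day 5.

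**Figure D4:**
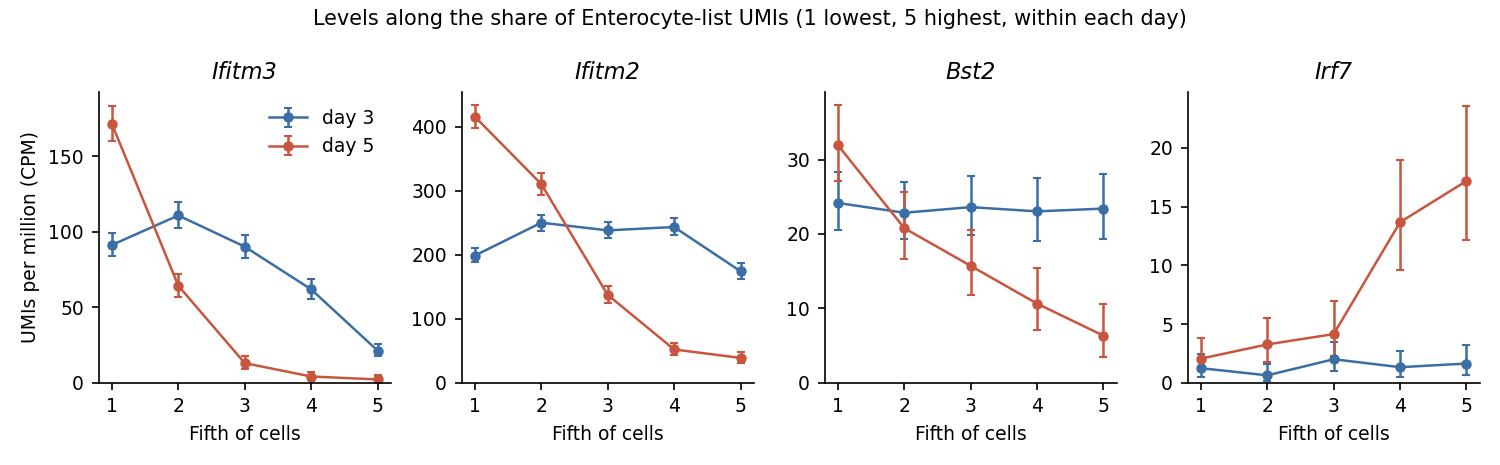
CPM (linear axes from 0) of Ifitm3, Ifitm2, Bst2 and Irf7 in 5 equal parts of the cells of each day, from the lowest (1) to the highest (5) share of Enterocyte-list UMIs, with exact 95% Poisson intervals. At day 5 (red) Ifitm3 drops from 171 to 2.26 CPM and Irf7 climbs from 2.06 to 17.2 CPM.

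The cells were also ordered by a Stem list that holds no interferon gene. Ifitm3 was then at 19.8, 39.4, 56.2, 74.1 and 191 CPM at day 3, each part above the one before it. At day 5 the first 2 parts overlapped (1.83 to 7.59 and 1.27 to 5.81 CPM), and the next were at 13.1, 75.3 and 172 CPM. Every cell of the first day 5 part, and the lowest of the second, had 0 UMIs of the list, so the list did not order those cells. Along the day 5 parts median UMIs rose from 10244 to 18782 and median mitochondrial shares fell from 8.97% to 5.01%. Their part in the order was not tested. The step from the fourth part to the fifth was 74.1 (67.3 to 81.3) to 191 CPM (180 to 203) at day 3. Ifitm2 went from 183 to 287 CPM at day 3 and from 38.7 to 411 CPM at day 5. Bst2 went from 5.78 (3.08 to 9.88) to 30.1 CPM (25.3 to 35.6) at day 5, and at day 3 its first and last parts overlapped at 23.6 and 21.2 CPM. Irf7 fell at day 5 from 16.4 to 1.99 CPM. Detection in the same thinned cells was then compared. Ifitm3 was in 38.4% (27.2 to 50.5) of 73 day 3 cells with an Lgr5 UMI and in 22.1% (19.1 to 25.3) of 725 without one, at median depths before thinning of 31719 and 32087. At day 5 the shares were 52.9% (41.9 to 63.7) of 87 cells and 13.4% (11.3 to 15.7) of 978, at median depths of 19772 and 13245. Of 46 thinned day 5 cells with an Irf7 UMI, 0 had one of Ifitm3 (interval up to 7.71%), against 17.4% (15.1 to 19.8) of 1019 cells without Irf7, at median depths of 9908.5 and 13722 before thinning. At day 3 it was 1 of 7 cells (14.3%, 0.361 to 57.9) against 23.6% of 791, with overlapping intervals. Of the 46 day 5 cells with Irf7, 37 were absorptive, a class in which Ifitm3 was in 2.40% of all thinned cells. The split by Irf7 therefore largely repeats the split by class, and co-detection within a class was not tested.

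Across the 19 clusters, the genes whose log2(CPM + 1) followed that of Ifitm3 most closely were Clca3b (r = 0.96), Igfbp4 (0.94), Cdca7 (0.94), Rgcc (0.94) and Axin2 (0.92), out of 3782 genes with at least 50 CPM in their highest cluster. Igfbp4, Cdca7 and Axin2, a feedback gene of Wnt signalling, belong to the Stem list. Among the 8 genes, r with Ifitm3 was 0.89 for Ifitm2, 0.77 for Bst2 and -0.70 for Irf7. For Ifit3, Oasl2, Isg15 and Ifit1 it was -0.81, -0.59, -0.48 and -0.45. Those genes had only 15, 19, 25 and 34 UMIs in both libraries together, so their r rests on few UMIs and many clusters without any. The 6 genes other than the Ifitm pair, summed, had no gene above 0.64, the value of the cyclin gene Ccni, followed by Pi4k2b, Rab8a, Slc25a39 and Atp5e. These correlations are descriptions over clusters of 2 libraries that also differ in depth and cell type.

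The wider list of 63 interferon-stimulated genes had 54 with a row, among them the 8 genes except Ifitm2. In absorptive against crypt cells at day 5, 39 had at least 10 UMIs, and 18 counted as higher and 4 as lower, where 19.7% and 30.3% of all genes did. The median log2 ratio was 0.94, and that of all genes -0.24. The highest beside Ifit3 were Ifit1bl2 (4 and 76 UMIs in crypt and absorptive cells, 4.39) and Oasl1 (1 and 23 UMIs, 4.28, interval 2.21 to 10.19). The lowest were Slfn9, a Schlafen gene with 86 and 0 UMIs, at least 23.2-fold lower, Ifitm3, Apobec3, an antiviral cytidine deaminase (-2.69), and Bst2. Without the 3 cells above, 16 counted as higher and 5 as lower. At day 3, 6 of 34 counted as higher and 4 as lower in absorptive cells, against 11.9% and 19.7% of all genes, and the median was 0.53 where all genes had -0.16. Between the days over all cells, 18 of 48 counted as higher and 2 as lower (14 and 2 without the 3 cells), against 12.3% and 31.5% of all genes, with a median of 0.46 where all genes had -0.33. In Stem-like cells of day 3, 2 of 41 were higher, Ifitm3 and Slfn9 (0.73), and 7 were lower, among them Samd9l (2 and 112 UMIs, -3.14), Oasl1 (2 and 56 UMIs, -2.15) and Ifit1bl1 (6 and 126 UMIs, -1.93). Among all genes 2.85% were higher and 10.8% lower, and the 41 genes had a median of -0.21 where all genes had -0.07.

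Genes upstream and beside the 8 were read from lists of the pathway, and the counts below stand against the 19.7% higher and 30.3% lower of all genes in absorptive cells at day 5. Of 12 interferon receptor and JAK-STAT genes, 8 were higher and 0 lower in absorptive cells at day 5. Ifnlr1, the receptor chain particular to type III interferon, was at 1.19 CPM in crypt and 7.35 CPM in absorptive cells (2.55), Jak2 at 8.67 and 28.2 CPM (1.69), Ifnar1, a chain of the type I receptor, at 6.46 and 14.7 CPM (1.18), and Ifnar2 at 8.84 and 18.5 CPM (1.06). Between days 1 of the 12 was higher, Ifnar2 (0.95), where 12.3% of all genes were, so the list did not stand above that share. Of 15 tested sensors of nucleic acids and patterns 6 were higher and 1 lower in absorptive cells at day 5. Ticam1, the adaptor of TLR3 (1.98), and Ddx58, which encodes RIG-I (1.77), were the highest, and Cgas, the DNA sensor, was lower with 75 and 1 UMIs (-5.35, interval -11.25 to -3.40). In the IFIT family 4 of 4 tested genes were higher. Ifit1 and Ifit3 did not count without the 3 cells described above, and the d5c8 cell held 21 of the 50 absorptive UMIs of Ifit1bl1. In the IFITM family 2 of 2 tested genes were lower, the Ifitm pair itself. In the IRF family Irf7 and Irf1 (1.38) were higher and Irf8 lower (-1.25), and of 13 genes of the interferon gamma response 4 were higher and 1 lower. Among the 4, B2m, the light chain of MHC class I, was at 304 CPM in crypt and 662 CPM in absorptive cells (1.12). Of 4 tested feedback inhibitors 1 was lower, the phosphatase gene Ptpn2 (-0.81), a share near that of all genes. Of 3 tested genes of ISG15 conjugation 0 counted. Of 21 ligand genes, Ifna2 and Ifng had a row and 1 UMI each, both at day 3.

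**Figure D5:**
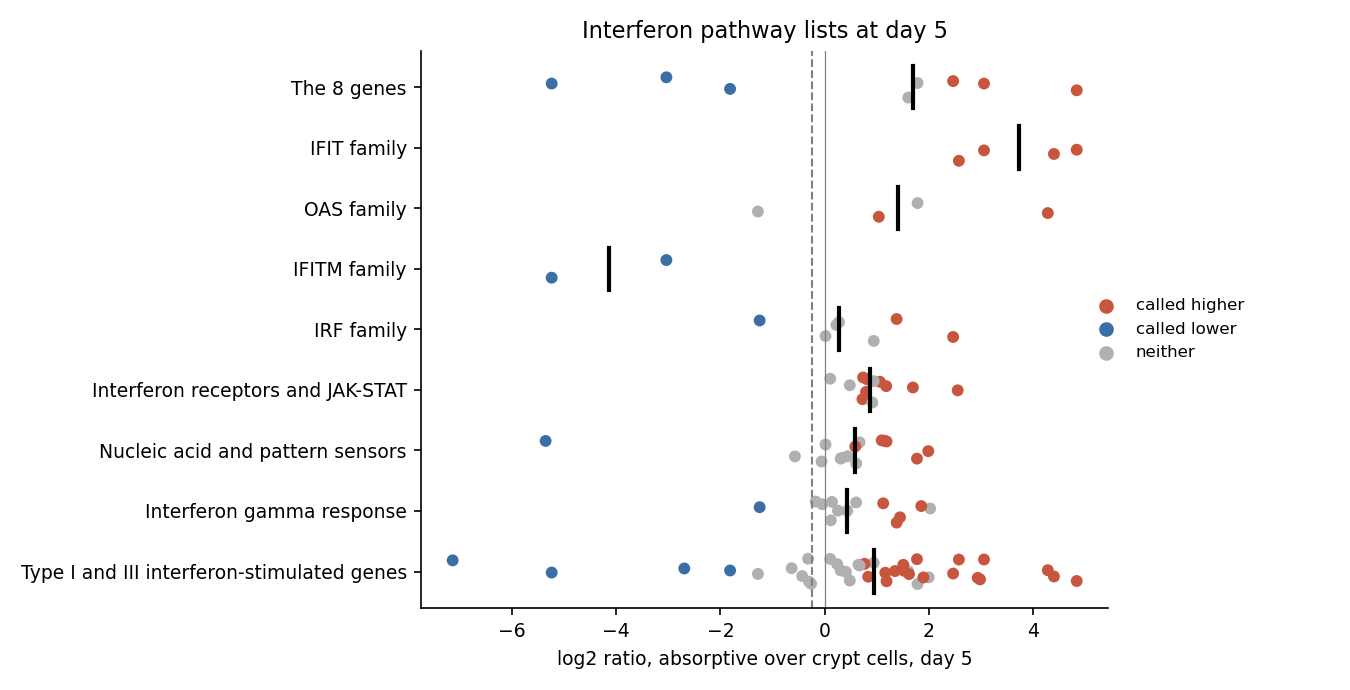
Log2 ratio of absorptive over crypt cells at day 5 for the genes of each list with at least 10 UMIs, 1 point per gene, red for higher, blue for lower and grey for neither, with the list's median as a black bar. The dashed line is the median of all genes, -0.24, and the 8 genes fall on both sides of it, with Ifitm3 at -5.23 and Ifit3 at 4.83.

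Immune and stromal cells were checked by their markers. Of the listed T cell, myeloid, B cell and stromal markers, 1 of 14, 6 of 14, 1 of 6 and 3 of 11 had a row. Their summed levels were 0 and 0.692 CPM for the T cell list (Ccl5 alone, whose 12 day 5 UMIs lay in crypt cells), 16.8 and 7.72 CPM for the myeloid list, 1.67 and 0.403 CPM for the B cell list and 1.36 and 1.56 CPM for the stromal list, at day 3 and day 5. Of the myeloid list, Cd14 alone supplied 419 of the 484 UMIs at day 3 and 109 of the 134 at day 5. In day 5 absorptive cells, where Irf7 was high, the lists were at 0, 1.89, 0 and 1.47 CPM. Ptprc, Cd3e, Cd8a and Tyrobp had no row, so they could not be checked.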

How the data were processed

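Transcripts of single cells were counted in 2 droplet libraries. The authors deposited UMI counts per gene and cell, made with Cell Ranger 1.3.0 on mm10 per the submitters' processing notes. The filtering of cells and genes is not stated in the labels. The authors' deposited log2 values equal log2 of the count over the cell's size factor, plus 1. Of 15745 gene identifiers 15681 matched a symbol (GENCODE M21).

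Counts were summed per class, with 0.5 UMI added to each sum in log2 ratios, exact conditional intervals of ratios, and CPM in place of a count test, since 1 library per day gives no replicate. Clustering used scanpy 1.11.5 (2000 variable genes, 30 components, 15 neighbours, Leiden resolution 1). Names such as Stem-like required 3 listed markers of the type among the 25 leading genes of a cluster. Scrublet called 2 doublets at day 3 and 8 at day 5. All cells were kept, and undetected doublets may remain. TMM came from edgeR 4.0.16. The rule for higher and lower was run on simulated Poisson sums, which lack the spread of real counts among cells. That run checks the code and cannot judge results that rest on a few cells. Named genes are the 8, the extremes of each list among those that counted, and the 5 closest in pattern. Ifi44, Rtp4, Parp12 and Cmpk2 were named after their values were seen. The 8 genes and the lists were chosen with earlier results of these data known. Alternatives were other scalings, weights, filters and clusterings. Some listed genes are not reported here.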

Additional observations from a re-analysis of the deposited data

Results flagged for a closer look

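For 3 genes with at least 10 UMIs in both comparisons, the day 5 over day 3 ratio had opposite signs in crypt and absorptive cells, but none of the 3 crypt ratios counted as higher or lower. With 1 library per day the difference between the classes was not tested. The crypt class also held Stem-like clusters at day 3 but not at day 5. The log2 ratios were 0.21 in crypt (-0.09 to 0.51) and -1.40 in absorptive cells for Bst2, and 0.30 (0.22 to 0.38) and -1.93 for Ifitm2. For Ifit1 they were -0.37 (-3.07 to 1.64) and 3.94. The first rests on 7 UMIs in 1 day 3 cell and 3 UMIs in 1 day 5 cell, without which crypt cells had 0 UMIs on both days, which gives no ratio. The second rests on 0 and 23 UMIs in absorptive cells, 17 of them in 1 cell.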

How the results depend on the processing

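The counts of genes out of 8 changed as follows. Between days, 5 were higher, but 2 without the 3 cells that held most of the rare UMIs, 1 among cells with at most 8% mitochondrial UMIs, 0 with day 5 cells at the day 3 minimum and 1 without Enterocyte-like cells, where the Ifit1 ratio reversed to -0.17. In absorptive against crypt cells at day 5, 3 were higher, but 1 without the 3 cells and 1 without the cell with most UMIs of each gene. It was also 1 at the mitochondrial limit, 1 with the extremes of the 5 parts ordered by the Enterocyte list, and 0 at resolution 2. With each cell weighed alike, 5 were higher. That alternative called genes higher or lower by the 1.5-fold difference and the UMI minimum, without the condition of separate intervals. Its counts therefore cannot be set beside the others. The 3 lower genes, Bst2, Ifitm2 and Ifitm3, were lower in all 11 alternatives that gave a value, with Ifitm3 between -6.11 and -4.58. At day 3, 1 was higher with each cell weighed alike, again without the interval condition. There 1 in place of 2 was lower at resolution 0.5 and with the extremes of the Enterocyte-list parts, Ifitm2 being the gene lost. Within crypt cells 1 in place of 0, and within absorptive cells 1 in place of 2, was higher without the 3 cells. In Stem-like cells the Ifitm3 ratio lay between 1.97 and 2.42 over the 7 alternatives at day 3. By the highest of 5 parts ordered by the Stem list, 1 in place of 2 was higher at day 3. At day 5, which had no Stem-like cells to set beside it, 1 gene was lower in that part, Irf7 (-1.94), as in cluster d5c2. On the wider list, TMM gave 0 in place of 2 lower between days and 6 in place of 2 higher within crypt cells. The 3 cells, the mitochondrial limit, the Stem-list parts and TMM for the class comparisons and lists were chosen after seeing the data. Clustering both libraries together left 1 crypt cell at day 5 and 3 absorptive cells at day 3, and no day 5 cluster was Stem-like, so these alternatives gave no value. Leaving out a replicate was not possible with 1 library per day. No paired analysis was possible because there is 1 library per group and no test. The depth limits the 4 rare genes most, since 3 UMIs correspond to 0.104 CPM at day 3 and 0.173 CPM at day 5.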
